A study of Mus musculus with 3 samples.

Results

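Expression of 10 early-response genes was followed in single myeloid cells of the mouse hippocampus. The genes were Egr1, Klf2, Klf4, Klf6, Nr4a1, Ier2, Ier5, Btg2, Dusp1 and Zfp36, which are 10 of the 31053 genes listed in the count tables. They were chosen with measured values in view: most of them were high in the third of 3 sequencing runs, and Klf2 led a cluster of cells together with Emp3. Comparisons of run 3 with the other runs, and of Emp3-positive cells with other cells, are therefore given as descriptions without a test.

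The series measured RNA in tdTomato+ cells sorted from bilateral hippocampi after myelin removal. All animals had the genotype Cx3cr1CreERT2/+; Rosa26tdTomato/+; NestinTK-eGFP/+ and received tamoxifen at 100 mg/kg on 4 days, so that no untreated or other genotype was available for comparison. Cre is driven by Cx3cr1, a gene of microglia as well as related macrophages, and the reporter therefore marks more than 1 cell type. Per the labels 12 animals were used (6 male, 6 female) for 3 runs that form 1 group, without saying which animals went into which run. The p-values therefore rest on spread between runs, pooled over genes in most fits, and that spread may be technical.

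Immediate-early genes are transcribed within minutes of a stimulus from factors that the cell already holds, and their mRNAs are short-lived. One set encodes transcription factors that carry the signal on to later genes, and another encodes feedback proteins that switch the signal off again by removing phosphate from kinases or by destabilising mRNA. In microglia, the resident macrophages of the brain, several of these genes are known as markers of recent cell activation.

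Cells with 1000 or more UMIs (barcodes that count single RNA molecules) and 500 or more genes, of which no more than 10% of UMIs were mitochondrial, were kept, which left 6993, 6720 and 6078 cells in runs 1, 2 and 3 with medians of 4425, 3438 and 3696 UMIs. Cells were assigned to populations by marker genes that include none of the 10 genes, and a population is named here after its gate. The microglia gate (at least 3 of 8 markers such as P2ry12 and Tmem119) held 6432, 6355 and 5659 cells, which are 92.0%, 94.6% and 93.1% of the kept cells. The runs shared 7 to 8 cell barcodes in pairs among the kept cells. UMIs of both Xist and Y-linked genes, a sign of 2 cells in a droplet, were present in 1.68% to 3.39% of the kept cells of a run. Levels are given as CPM, the UMIs of a gene in 1e6 UMIs summed over a population, with 95% counting intervals where printed, which cover counting error only.

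Egr1, a zinc finger transcription factor induced by growth factor and stress signalling (ENSMUSG00000038418, chr18:34859823-34864984, plus strand), was at 1.44, 1.79 and 281 CPM in the microglia-gated cells of runs 1, 2 and 3. Run 3 was 196-fold above run 1 (counting interval 145 to 271) and 157-fold above run 2 (116 to 219). Summed over the gate, Egr1 was thus low in the first pair of runs and abundant in the last. Among the 32 genes that reached 20 CPM in run 3 and were at least 2-fold above both other runs, Egr1 and the AP-1 gene Fos had the highest ratios. Fos was at 0.301, 0.306 and 52.4 CPM. Cells were thinned to 2000 UMIs each to compare the share with an Egr1 UMI at equal depth, which left 6358, 5998 and 5497 microglia-gated cells and left out the shallower ones. That share was 0.157%, 0.133% and 25.3% in runs 1, 2 and 3 (0.280%, 0.205% and 32.0% without thinning). Most run 3 cells therefore had no Egr1 UMI at this depth, while the highest thinned cell held 13, against 8 in run 1 and 7 in run 2.

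The Krüppel-like factors split. Klf2 (ENSMUSG00000055148, chr8:72319033-72321656, plus strand), a factor known to restrain inflammatory gene expression in myeloid cells, was at 22.3, 14.9 and 99.9 CPM in runs 1, 2 and 3. Klf6 (ENSMUSG00000000078, chr13:5861482-5870394, plus strand), a family member with roles in macrophage activation, was at 109, 101 and 151 CPM. Both were highest in run 3, Klf2 by 4.48-fold and 6.70-fold and Klf6 by 1.38-fold and 1.49-fold over runs 1 and 2. Klf4 (ENSMUSG00000003032, chr4:55527143-55532466, minus strand), best known as a pluripotency factor and also expressed in monocytes and macrophages, was at 17.8, 6.56 and 18.8 CPM. For Klf4 run 2 was the low run, and runs 1 and 3 differed by less than their counting intervals. Nr4a1 (ENSMUSG00000023034, chr15:101254269-101274795, plus strand), an orphan nuclear receptor of the early response, was at 0.669, 0.787 and 0.776 CPM. These Nr4a1 levels rest on 20, 18 and 17 UMIs, and the intervals of the 3 runs overlapped.

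The early-response genes Ier2 and Ier5 encode short-lived nuclear proteins. Ier2 (ENSMUSG00000053560, chr8:84661331-84662852, minus strand) was at 11.04, 18.8 and 110 CPM in runs 1, 2 and 3, and Ier5 (ENSMUSG00000056708, chr1:155096361-155099636, minus strand) at 244, 307 and 512 CPM. Run 3 was the highest for both, and run 2 lay above run 1 for both.

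The feedback genes were all highest in run 3. Btg2 (ENSMUSG00000020423, chr1:134075170-134079120, minus strand), an antiproliferative protein that promotes mRNA deadenylation, was at 224, 233 and 1171 CPM. Dusp1 (ENSMUSG00000024190, chr17:26505590-26562128, minus strand), a phosphatase that inactivates MAP kinases, was at 4.02, 3.85 and 25.7 CPM. Zfp36 (ENSMUSG00000044786, chr7:28376784-28380253, minus strand), the RNA-binding protein tristetraprolin that destabilises cytokine mRNAs, was at 65.1, 53.2 and 301 CPM. Runs 1 and 2 were close for all 3 genes, and run 3 was 4.63-fold to 6.66-fold above either of them. Exons of Dusp1 overlap those of Ergic1 on the other strand, and exons of Zfp36 overlap those of the antisense gene Gm44710. Whether counting used the strand is not stated, so reads of these overlapping pairs cannot be told apart.

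**Figure D1:**
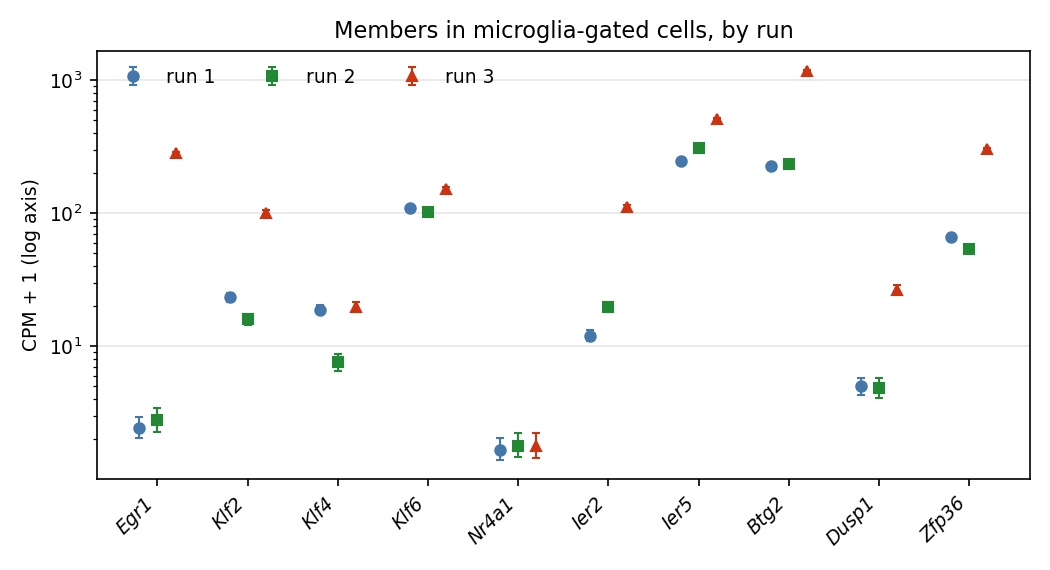
Level of each of the 10 genes in microglia-gated cells as CPM + 1 on a log axis, 1 point per run, with 95% counting intervals. Run 3 lies above both other runs for 8 genes, while Klf4 is lowest in run 2 and Nr4a1 stays below 1 CPM in every run.

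In all, 8 of the 10 genes were above both other runs in run 3 with counting intervals apart, and 6 of them (Egr1, Klf2, Ier2, Btg2, Dusp1 and Zfp36) by at least 2-fold. Over all genes with a UMI in these cells 0.957% met the 2-fold criterion. Since the genes were chosen for this rise, nothing is read from the difference between these shares. The wider early-response lists were written from general knowledge with earlier results known. Of 9 AP-1 genes 5 met the 2-fold criterion (Fos, Fosb, Jun, Junb and Jund), of 21 relatives of the member families 3 did (Egr2, Egr3 and Ier3), and of 20 other early and feedback genes 3 did (Nfkbiz, Rgs1 and Ppp1r15a). None of 8 heat shock genes did, and 2 of them lay below both other runs. The rise therefore took in part of each early-response list and no heat shock gene.

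The difference between runs was present across cell depth, mitochondrial share and sex-linked transcripts. In run 3, Egr1 was at 292, 294 and 267 CPM in the cells with low, middle and high UMI counts. It was at 322, 285 and 238 CPM in those with low, middle and high mitochondrial share, and Btg2 followed with 1290, 1212 and 1013 CPM. Both genes thus declined somewhat with mitochondrial share within run 3, but no such split brought Egr1 near its level in runs 1 and 2, where its highest value in any of these splits was 4.11 CPM. In run 3 Egr1 was at 273 CPM in cells with Xist UMIs and at 290 CPM in cells with Y-linked UMIs. The median mitochondrial share of kept cells was 2.62%, 2.11% and 2.59% in runs 1, 2 and 3, and the counting software had version 3.0.2 in run 1 and 3.1.0 in runs 2 and 3. Run, animals, handling and sequencing cannot be told apart here.

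Within run 3 more of the genes were detected per cell, and most were found more often in cells with an Egr1 UMI. After thinning, 43.4% of the microglia-gated cells held at least 3 of the 10 genes (interval 42.0% to 44.7%), against 7.71% in run 1 and 8.29% in run 2. At least 5 genes were found in 12.2% of cells in run 3, against 0.0472% and 0.133%. Such counts rise with the share of each single gene, so they do not by themselves show detection in the same cells. Of the 1388 cells with an Egr1 UMI in run 3, 91.8% also had Btg2, against 60.8% of the 4109 cells without. The same comparison gave 60.7% against 29.4% for Zfp36, 34.4% against 7.76% for Ier2, 25.2% against 6.62% for Klf2 and 10.8% against 2.09% for Dusp1. For Ier5 it was 71.8% against 56.0%, for Klf6 28.2% against 21.3% and for Klf4 5.19% against 2.17%. Nr4a1 was found in 0.144% of cells with Egr1 and 0.0973% of those without, which is 2 and 4 cells. Run 3 cells without an Egr1 UMI also lay above all microglia-gated cells of runs 1 and 2, where Btg2 was found in 35.3% and 36.0%, Zfp36 in 12.3% and 10.5%, and Ier2 in 1.90% and 4.03%. Cells without an Egr1 UMI at this depth are therefore not cells without the rise. The non-myeloid gates held at most 8 cells in run 3 (T and NK), and none of them is taken to lack these genes. The part of free RNA in these shares was not tested.

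**Figure D2:**
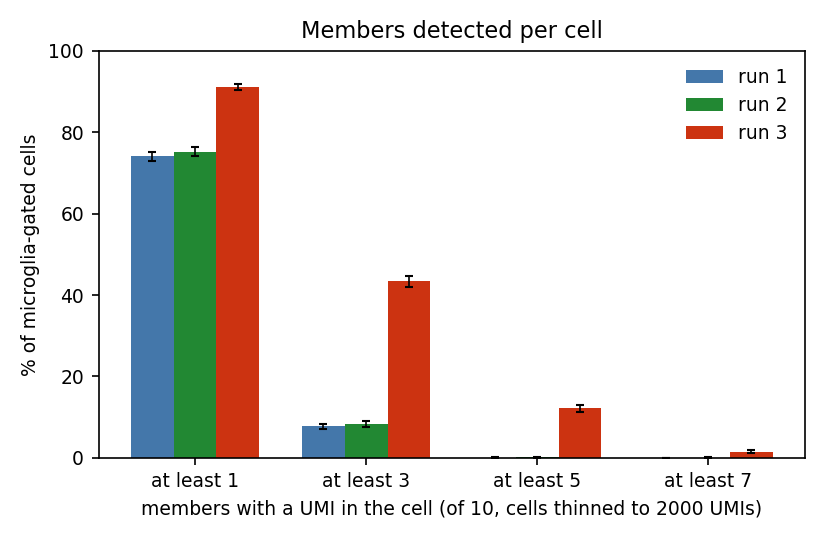
Share of microglia-gated cells, thinned to 2000 UMIs, in which at least 1, 3, 5 or 7 of the 10 genes had a UMI, by run, with exact binomial 95% intervals. In run 3 the share with at least 3 genes is 43.4%, above 7.71% and 8.29% in runs 1 and 2.

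The windows of 250 bases before the RefSeq start (build GRCm38.p6) were searched on both strands for the CArG box bound by serum response factor, for the cAMP response sequences TGACGTCA and TGACG (the second is contained in the first), for the Egr sequence GCGNGGGCG and for the MEF2 element. Matches are given for windows of 8 of the genes, all but Egr1 and Ier2. Whether the windows of Egr1 and Ier2 hold any of these sequences is not reported here. TGACGTCA was found for Btg2 and Dusp1, against 1.55% of 32851 promoter windows of the same length. TGACG was found for 5 genes (17.8% of all windows), and GCGNGGGCG for 5 genes (4.70%). The windows of 4 genes are shown: Btg2 and Dusp1 for the full TGACGTCA, Klf2 for its MEF2 element, and Nr4a1 as a gene that was not higher in run 3 and yet holds several TGACG. Capitals mark matches to any of these sequences on either strand, and bases inside an exon of the same gene in GENCODE M21 are left out.
Btg2: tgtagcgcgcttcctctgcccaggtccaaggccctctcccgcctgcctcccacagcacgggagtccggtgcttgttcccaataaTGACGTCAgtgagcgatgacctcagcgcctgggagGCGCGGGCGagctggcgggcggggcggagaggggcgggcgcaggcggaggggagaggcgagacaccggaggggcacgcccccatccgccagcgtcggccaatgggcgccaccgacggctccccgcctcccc
Dusp1: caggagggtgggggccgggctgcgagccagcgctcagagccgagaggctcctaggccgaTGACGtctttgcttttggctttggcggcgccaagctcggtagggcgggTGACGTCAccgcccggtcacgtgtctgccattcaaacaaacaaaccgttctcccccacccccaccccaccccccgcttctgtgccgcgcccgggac
Klf2: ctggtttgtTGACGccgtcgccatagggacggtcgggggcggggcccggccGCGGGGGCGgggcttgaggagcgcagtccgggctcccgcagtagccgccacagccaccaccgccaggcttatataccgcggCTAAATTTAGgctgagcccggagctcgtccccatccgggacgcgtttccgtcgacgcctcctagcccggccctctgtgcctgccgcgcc
Nr4a1: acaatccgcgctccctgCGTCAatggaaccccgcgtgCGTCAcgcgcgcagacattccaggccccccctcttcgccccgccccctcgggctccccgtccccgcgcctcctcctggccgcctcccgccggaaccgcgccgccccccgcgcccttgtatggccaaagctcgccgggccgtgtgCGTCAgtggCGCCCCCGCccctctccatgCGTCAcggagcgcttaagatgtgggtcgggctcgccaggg
The Btg2 window is chr1:134079156-134079405 on the minus strand and the Dusp1 window chr17:26508520-26508722 on the minus strand. In both, the full TGACGTCA lies in the window, at -166 to -159 for Btg2 and at -143 to -136 for Dusp1. The Klf2 window, chr8:72318812-72319032 on the plus strand, holds a MEF2 element at -118 to -109, which 0.508% of all windows hold. The Nr4a1 window, chr15:101266596-101266845 on the plus strand, holds TGACG 4 times, each on the opposite strand, and no complete TGACGTCA. In the Zfp36 window, which lies inside an annotated exon and is not shown, a CArG box lies at -58 to -49, as in 1.47% of all windows. A match is a description of the letters only.

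Klf2 stood apart from the other genes in the Emp3-gated cells. The gate required a UMI of Emp3, a membrane protein, and of Fxyd5 or Tnfsf13b, and held 235, 170 and 194 cells. Klf2 was at 269, 150 and 311 CPM there in runs 1, 2 and 3, against 22.3, 14.9 and 99.9 CPM in microglia-gated cells. The ratio was 12.0 (counting interval 10.5 to 13.7), 10.0 (8.01 to 12.5) and 3.11 (2.73 to 3.53), a mean of 8.39 ± 4.68 (SD, n = 3). Klf2 was thus above the microglia-gated level in every run, and the ratio was smallest in run 3, where the microglia-gated level was highest. After thinning, 26.8%, 16.7% and 29.5% of Emp3-gated cells had a Klf2 UMI in runs 1, 2 and 3, against 3.66%, 2.63% and 11.3% of microglia-gated cells (37.0%, 25.3% and 39.2% against 6.53%, 3.63% and 16.6% without thinning). Where at least 2 Emp3 UMIs were required, 90, 49 and 58 cells remained and the mean ratio was 15.4.

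The run 3 difference of Klf2 was smaller in Emp3-gated than in microglia-gated cells. Within the Emp3 gate, run 3 was 1.16-fold above run 1 (counting interval 0.985 to 1.36) and 2.08-fold above run 2 (1.66 to 2.62), where the microglia-gated ratios were 4.48 (4.10 to 4.89) and 6.70 (5.97 to 7.53). Egr1, Btg2 and Zfp36 were highest in run 3 in the Emp3 gate too. Egr1 had no UMI in the Emp3-gated cells of runs 1 and 2 and was at 401 CPM in run 3, at least 176-fold higher than run 1 and at least 98.3-fold higher than run 2 when a count of 0 is set to 3 counts (lower counting limits of the ratio 142 and 79.5). Btg2 was at 202, 182 and 1437 CPM in the Emp3 gate, 7.13-fold and 7.89-fold higher in run 3, and Zfp36 at 54.8, 39.4 and 345 CPM. High Klf2 in runs 1 and 2 was therefore seen in cells without a detected Egr1 transcript.

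Microglia markers were high in Emp3-gated cells. The 8 markers summed to 26880, 36993 and 28344 CPM in runs 1, 2 and 3, against 30225, 39989 and 31197 CPM in microglia-gated cells. Other lists were higher than in microglia-gated cells. The 7 lipid markers summed to 132, 132 and 100.2 CPM, against 41.2, 46.9 and 39.3 CPM. The 5 monocyte markers summed to 8.37, 8.16 and 17.3 CPM, against 4.52, 3.50 and 5.02 CPM, all of it from Ccr2 and Plac8. The part of these markers in the Klf2 level was not tested. All 8 T and NK markers were at 0 in the 3 runs, and at least 5 of 6 neutrophil markers were at 0 in each run. The 7 border macrophage markers summed to 9.89, 0 and 5.76 CPM, and Cldn5 of the endothelial list was at 0 while the list summed to 19.6 to 22.8 CPM. Median depth was 4756, 3882 and 4010.5 UMIs, above the 4383, 3419 and 3665 of the microglia gate, and 4.64% to 6.81% of the cells held UMIs of both Xist and Y-linked genes. Without those cells the mean ratio of Klf2 was 8.78.

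**Figure D3:**
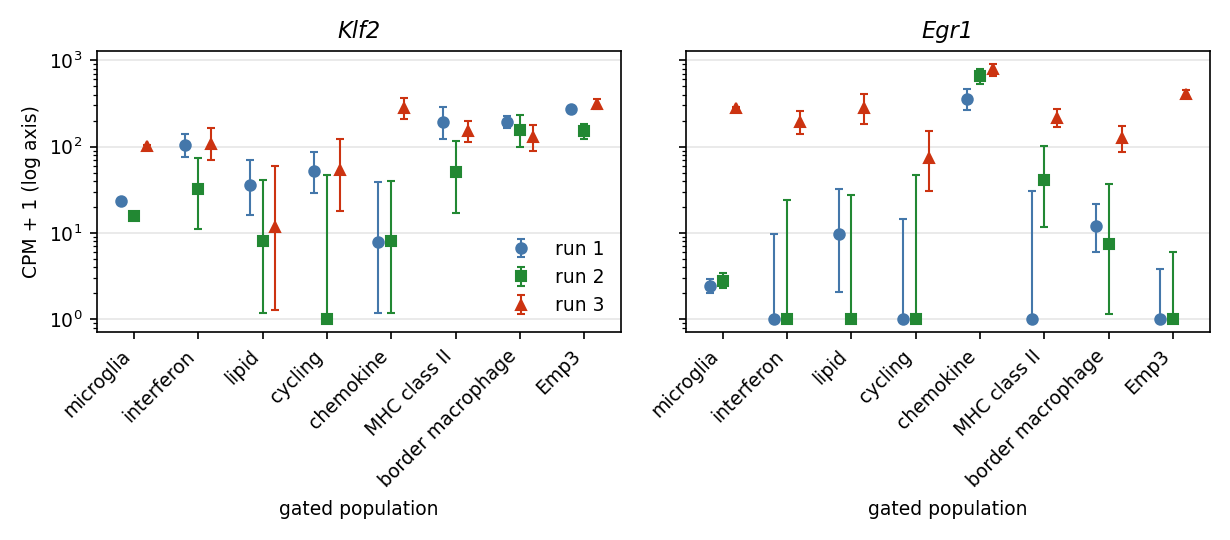
Klf2 (left) and Egr1 (right) as CPM + 1 on a log axis in 8 gated populations, 1 point per run, with 95% counting intervals. Klf2 is at 150 to 311 CPM in the Emp3 gate in every run, while Egr1 has no UMI there in runs 1 and 2 and reaches 401 CPM in run 3.

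Over 22 sums of a run and population with at least 20 cells, likeness of pattern was described by Pearson's r of log2(CPM + 1). The sums share libraries and depth, so r is a description. For Egr1 the most similar of 6191 genes, apart from the 10, were Junb (0.90), Rgs1 (0.89), Fos (0.85), Egr3 (0.83) and Neat1 (0.80). Zfp36 (0.93) and Btg2 (0.91) followed Egr1 closely, while Klf2 (0.09) did not. For Klf2 the most similar were Gm26740 (0.82), Rnf150 (0.69), Lztfl1 (0.69), Gm20342 (0.68) and Spopl (0.68), none of them in the early-response lists.

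The remaining comparisons set populations of the same run against its microglia-gated cells and do not use the contrast between runs. The summed UMIs of each run entered edgeR's quasi-likelihood test with the run as a block, with Benjamini-Hochberg adjustment over all genes tested and a threshold of 0.05. Log2 changes are given with their standard errors, and n is 3 runs. All fits but that of Xist against Y-linked cells took each gene's spread from a trend shared over genes. Standard errors and p-values of those fits therefore do not reflect how far a gene's own ratio differed between runs.

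Chemokine-gated cells, which held at least 10 UMIs of Ccl3 and Ccl4 together, had the highest Egr1 level among 8 gated populations in every run. The gate held 26, 30 and 42 cells with median depths of 4997, 4742 and 4333.5 UMIs. Of the 10 genes 8 were higher, where 4.06% of all genes were called higher. None was lower, where 3.08% of all genes were. The 8 include Nr4a1, which passed the count filter through this gate, and Klf2, which was higher in 1 of 3 runs. The count of 8 is therefore a description only. Egr1 was at 354, 650 and 781 CPM in runs 1, 2 and 3 of the chemokine gate, against 1.44, 1.79 and 281 CPM in microglia-gated cells, with a log2 change of 5.36 ± 0.19 (edgeR, adjusted p = 5.77e-115). These levels lay above the microglia-gated ones in every run, by 246-fold, 362-fold and 2.77-fold, so the fitted change averages unequal ratios and was 8.30 without run 3, 4.19 without run 1 and 3.47 without run 2. After thinning, 30.8%, 46.7% and 56.1% of chemokine-gated cells had an Egr1 UMI (38.5%, 46.7% and 69.0% without thinning).

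Nr4a1, which was not higher in run 3, was far higher in the chemokine gate. It was at 95.3, 154 and 65.9 CPM, against 0.669, 0.787 and 0.776 CPM, a log2 change of 7.14 ± 0.57 (edgeR, adjusted p = 8.46e-33). The groups did not overlap, and run 3 was the lowest of the chemokine-gated sums. These sums rest on 14, 22 and 13 Nr4a1 UMIs. Nr4a1 entered the test through its level in the chemokine gate, since it was too low to be tested against MHC class II-gated, cycling-gated and lipid-gated cells, so its call supports no count over the genes. The ratios of Nr4a1 were 142, 195 and 84.9, below those of Egr1 in runs 1 and 2 and above in run 3. Ier2 was at 211, 426 and 355 CPM against 11.04, 18.8 and 110 CPM, with a log2 change of 3.29 ± 0.19 (edgeR, adjusted p = 1.31e-64). The Ier2 groups did not overlap either, and its change was 4.47 without run 3 and 2.58 without run 2.

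The feedback genes rose as well. Dusp1 changed by 2.84 ± 0.42, Zfp36 by 1.72 ± 0.17 and Btg2 by 1.37 ± 0.11 on the log2 scale, and Ier5 by 0.98 ± 0.12, each higher in 3 of 3 runs. Adjusted p-values of these 4 genes in edgeR lay between 3.04e-34 (Btg2) and 1.21e-09 (Dusp1). Klf4 and Klf6 did not pass the test, with log2 changes of 0.37 ± 0.61 and 0.37 ± 0.20 (edgeR, adjusted p = 0.827 and 0.375). Klf2 passed it with 1.10 ± 0.26 (edgeR, adjusted p = 0.00102), but was at 6.81, 6.99 and 279 CPM, above the microglia-gated level in run 3 only. Its first pair of values is 1 UMI each, and without run 3 its change was -1.36 (edgeR, adjusted p = 0.615). Without the run as a block, 2 of the 8 calls passed the threshold, those of Nr4a1 and Ier2, and Egr1 did not (edgeR, adjusted p = 0.288).

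Other early-response genes were also higher in the chemokine gate. Of the 9 AP-1 genes 8 were tested and 6 rose, led by Atf3 (5.44), Maff (5.02) and Fos (3.29 on the log2 scale). Of the relatives 16 were tested, 6 rose and 3 fell, led upward by Egr3 (8.92), Egr2 (7.45) and Dusp2 (5.51) and downward by Klf3 (-1.10), Dusp6 (-0.93) and Zfp36l2 (-0.85). Of the other early and feedback genes 18 were tested, 10 rose and 3 fell, led upward by Gadd45b (6.75), Id2 (3.32) and Per1 (2.00). Of 7 heat shock genes tested 4 rose, led by Hsp90aa1 (0.94). The median log2 change was 1.60, 0.64, 1.04 and 0.50 for these lists in that order and 1.54 for the 10 genes, against -0.15 over all genes tested. Egr2 and Egr3, at most at 2.19 CPM in microglia-gated cells, passed the count filter through the chemokine gate, as did Nr4a1. Other low genes may have done so too. Counts and medians that hold such genes are therefore descriptions only.

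Chemokine-gated cells and run 3 microglia-gated cells thus shared high Egr1, Btg2, Ier2, Zfp36 and Dusp1 but differed in other genes. Egr3 was at 245, 182 and 279 CPM in the chemokine gate and at 1.46 CPM in run 3 microglia-gated cells. Atf3 was at 770, 915 and 477 CPM against 21.9 CPM, and Gadd45b at 211, 182 and 86.2 CPM against 1.92 CPM. The 2 gating chemokines summed to 56.4 CPM in microglia-gated cells of run 3 and to 13.5 and 23.7 CPM in those of runs 1 and 2. The 8 microglia markers summed to 21431, 29389 and 25635 CPM in chemokine-gated cells, and the monocyte markers summed to at most 6.99 CPM. The 7 lipid markers summed to 572, 224 and 340 CPM there, against 41.2, 46.9 and 39.3 CPM in microglia-gated cells, and their part in the early-gene change was not tested.

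**Figure D4:**
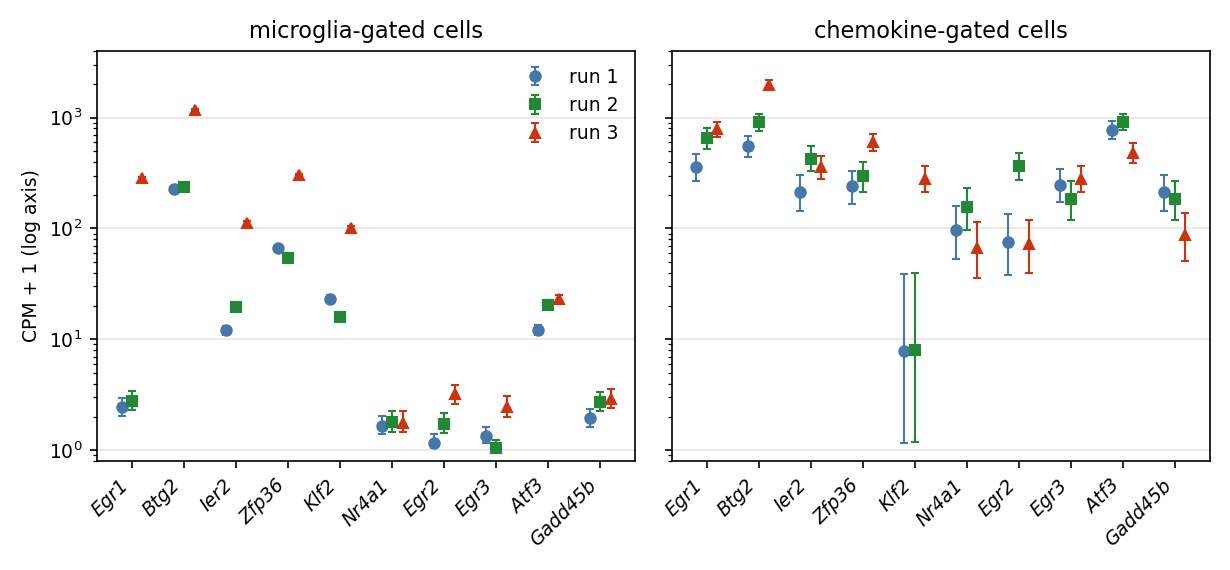
Early-response genes in microglia-gated (left) and chemokine-gated (right) cells as CPM + 1 on a log axis, 1 point per run, with 95% counting intervals. Nr4a1, Egr2, Egr3 and Gadd45b are below 3 CPM in microglia-gated cells of every run and at 65.9 CPM or more in chemokine-gated cells.

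Border macrophage-gated cells, defined by at least 3 of Pf4, Mrc1, Lyve1 and other markers of the macrophages of meninges and vessels, had 7 of the 10 genes higher (7.42% of all genes) and 1 lower (4.81% of all genes). The 7 include Nr4a1, which passed the count filter through this gate on 3, 2 and 3 UMIs, so its call supports no count over the genes. Dusp1 was at 55.7, 109 and 220 CPM in the 80, 35 and 54 cells of runs 1, 2 and 3, against 4.02, 3.85 and 25.7 CPM, a log2 change of 3.83 ± 0.26 (edgeR, adjusted p = 5.5e-45). The Dusp1 groups did not overlap, and within each population run 3 was highest. Klf2 was at 193, 154 and 127 CPM against 22.3, 14.9 and 99.9 CPM, a log2 change of 2.37 ± 0.23 (edgeR, adjusted p = 3.94e-23). Klf2 was therefore higher in every run, with no rise in run 3 within border macrophage-gated cells, and its change was 1.57 without run 1 and 3.28 without run 3.

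Klf4 was at 66.6, 6.40 and 97.1 CPM in border macrophage-gated cells against 17.8, 6.56 and 18.8 CPM, higher in 2 of 3 runs and level in run 2, where 1 UMI was counted. Its log2 change was 2.06 ± 0.30 (edgeR, adjusted p = 1.34e-10). Ier2 changed by 1.65 ± 0.25 and Zfp36 by 0.96 ± 0.21 (edgeR, adjusted p = 6.32e-10 and 0.000161), each in 3 of 3 runs. Egr1, at 10.9, 6.40 and 123 CPM, and Btg2, at 196, 230 and 1056 CPM, did not pass the test (edgeR, adjusted p = 0.844 and 0.990). Both were highest in run 3 in these cells too. The calls of Nr4a1 (3.41 ± 0.88), Klf6 (0.61 ± 0.21) and Ier5 (-0.59 ± 0.21) depended on single runs and on other settings. Klf6 kept its call in 2 of 11 alternative fits, Ier5 in 4 of 11 and Nr4a1 in 7 of 10. Klf6 lost its call without any 1 run (edgeR, adjusted p = 0.165, 0.154 and 0.0898 without runs 1, 2 and 3), Nr4a1 without run 2 or 3 (0.138 and 0.198) and Ier5 without run 2 or 3 (0.340 and 0.356). In run 1, 32.5% of border macrophage-gated cells held UMIs of both Xist and Y-linked genes, against 2.85% of microglia-gated cells, and without such cells all 8 calls passed. The microglia markers summed to 18859, 10241 and 5995 CPM in this gate. The MHC class II genes summed to 4173, 11195 and 6566 CPM (13.3 to 17.1 CPM in microglia-gated cells). The gating chemokines summed to 75.1, 275 and 885 CPM (13.5 to 56.4 CPM), and the interferon markers to 534, 1420 and 1493 CPM (46.9 to 55.5 CPM). The part of these markers in the changes was not tested. In thinned cells Ier2 lost its call (edgeR, adjusted p = 0.0799). Without the run as a block the calls of Klf2, Klf4, Nr4a1 and Dusp1 passed.

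Among the lists, border macrophage-gated cells had 2 of 7 tested AP-1 genes higher (Fos, 4.93, and Fosb, 3.89 on the log2 scale), 5 of 15 relatives higher (led by Egr2, 3.16, and Klf9, 2.72) and 6 of 19 other early genes higher and 3 lower (led by Sik1, 3.54, and Sgk1, -1.90). Of 8 heat shock genes 1 was higher, Hspa1a (3.94). The median over the 10 genes was 1.30, against -0.11 over all genes tested. Egr2 and Nr4a1, near 0 in microglia-gated cells, passed the count filter through the border macrophage gate. Other low genes may have done so too, since 8 heat shock genes were tested here and 6 in the lipid comparison. Counts and medians of the lists and of the 10 genes are therefore descriptions only.

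MHC class II-gated cells, which held UMIs of H2-Aa, H2-Ab1 and H2-Eb1, had 5 of 9 tested genes higher (7.82% of all genes) and none lower (6.75% of all genes). The gate held 19, 19 and 40 cells. Klf4 was at 31.8, 89.4 and 84.7 CPM against 17.8, 6.56 and 18.8 CPM, a log2 change of 2.46 ± 0.41 (edgeR, adjusted p = 7.3e-08). Klf2 was at 191, 49.7 and 150 CPM against 22.3, 14.9 and 99.9 CPM, a log2 change of 1.80 ± 0.29 (edgeR, adjusted p = 2.78e-08). Klf4 did not overlap between the groups, and Klf2 did, although each run was higher on its own. Dusp1 changed by 2.68 ± 0.47, Ier2 by 1.29 ± 0.32 and Klf6 by 0.83 ± 0.25 (edgeR, adjusted p = 3.95e-07, 0.000843 and 0.00791), each in 3 of 3 runs. Without run 2, Ier2 (edgeR, adjusted p = 0.165) and Klf6 (0.0812) lost their calls, and Klf6 did so without run 3 (0.344). Without run 1 the change of Klf2 was 1.11 and that of Dusp1 1.76, and without run 3 they were 2.82 and 3.92, with Ier2 at 2.21. Without the run as a block the calls of Klf4, Klf6 and Dusp1 passed, and in thinned cells Klf4 and Ier2 did not (edgeR, adjusted p = 0.257 and 0.0607). The monocyte markers summed to 191, 308 and 695 CPM in this gate (3.50 to 5.02 CPM in microglia-gated cells), with Ly6c2, Chil3 and Vcan at 0 in every run. The border macrophage markers summed to 341, 1153 and 390 CPM (3.32 to 6.39 CPM). The microglia markers were down at 15438, 7821 and 7154 CPM (30225, 39989 and 31197 CPM). The 3 Emp3 gate markers summed to 556, 1262 and 1172 CPM here, against 592, 662 and 638 CPM in the Emp3 gate (65.2 to 76.6 CPM in microglia-gated cells). The 2 gating chemokines summed to 183, 894 and 136 CPM (13.5 to 56.4 CPM). Interferon markers summed to 1477, 2047 and 432 CPM (46.9 to 55.5 CPM) and lipid markers to 532, 904 and 918 CPM (39.3 to 46.9 CPM). The MHC class II gate thus differed in cell markers as well as in the early genes, and the part of these markers in the changes was not tested. Nr4a1, at 0, 0 and 28.2 CPM, was too low to be tested. Relatives Egr2 (3.87) and Egr3 (3.59 on the log2 scale) and the AP-1 genes Fos (2.19) and Atf3 (1.64) were higher, which are 2 of 15 and 2 of 8 tested genes, while 3 relatives led by Klf3 (-1.13) were lower. Of 19 other early genes 4 were higher, led by Sik1 (4.59), and 4 lower, led by Sgk1 (-1.76), and 2 of 7 heat shock genes were higher, led by Hsp90ab1 (1.15). Egr2 and Egr3, near 0 in microglia-gated cells, passed the count filter through the MHC class II gate. Other low genes may have done so too, so the counts of these lists are descriptions only. The median over the 9 tested genes was 0.83, against -0.23 over all genes.

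In cycling-gated cells, with at least 4 of 10 cell cycle markers such as Mki67, 4 of 9 tested genes were lower (9.56% of all genes) and none higher (9.03% of all genes). The gate held 34, 11 and 15 cells. Btg2, the antiproliferative gene, was at 145, 126 and 478 CPM against 224, 233 and 1171 CPM, lower in 3 of 3 runs, with a log2 change of -1.18 ± 0.21 (edgeR, adjusted p = 3.92e-07). Egr1 had no UMI in the cycling-gated cells of runs 1 and 2 and was at 72.7 CPM in run 3, against 281 CPM, a log2 change of -2.27 ± 0.48 (edgeR, adjusted p = 3.21e-05). The change of Egr1 therefore rests on run 3. Ier2 changed by -2.17 ± 0.60 and Zfp36 by -1.04 ± 0.28 (edgeR, adjusted p = 0.00282 and 0.00236), each lower in 3 of 3 runs. The cycling-gated sums rest on 0, 1 and 3 Ier2 UMIs and on 14, 1 and 14 Zfp36 UMIs. Without run 3 the calls of Egr1 (edgeR, adjusted p = 0.731), Ier2 (0.311) and Zfp36 (0.298) were lost. Without the run as a block none of the 4 passed, with Btg2 nearest (edgeR, adjusted p = 0.0998). AP-1 genes Jund (-1.40) and Junb (-1.22 on the log2 scale) were lower among 6 tested, and 6 of 13 relatives were lower, led by Klf3 (-1.49) and Btg1 (-1.42), another antiproliferative gene of the Btg family. Of 18 other early genes 4 were lower, led by Trib1 (-1.86), and Pim1 (3.18) was higher, as was Hsp90aa1 (2.05) among 6 heat shock genes. Interferon markers summed to 265, 541 and 41.6 CPM in this gate, against 46.9, 55.5 and 51.9 CPM, and their part was not tested. Median depth was 7436.5, 6478 and 6276 UMIs in this gate, above the microglia gate, and the median change over all genes was -0.23, against -0.19 over the 9 tested.

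Lipid-gated cells, with at least 3 of 7 markers such as Spp1 and Lpl, had 2 of 9 tested genes lower (4.52% of all genes) and none higher (4.27% of all genes). Btg2 was at 127, 121 and 512 CPM against 224, 233 and 1171 CPM, and Ier5 at 149, 170 and 235 CPM against 244, 307 and 512 CPM, in 27, 24 and 15 cells. Both were lower in 3 of 3 runs, by log2 changes of -0.99 ± 0.18 and -0.84 ± 0.18 (edgeR, adjusted p = 1.06e-06 and 0.000141). Egr1, at 8.74, 0 and 277 CPM, kept its difference between runs and did not pass the test between gates (edgeR, adjusted p = 0.952). AP-1 genes moved both ways, with Atf3 higher (1.82) and Jun (-0.85), Junb (-0.66) and Jund (-0.52 on the log2 scale) lower among 7 tested, while of 14 relatives 6 were lower, led by Klf7 (-1.33), and Ier3 (1.56) was higher. Of 18 other early genes 5 were lower, led by Cebpd (-1.78), and Id2 (1.19) was higher, and 3 of 6 heat shock genes were higher, led by Hsp90ab1 (0.93). The 2 gating chemokines summed to 271, 1108 and 608 CPM here, against 13.5, 23.7 and 56.4 CPM, and their part was not tested. Without the run as a block neither Btg2 nor Ier5 passed (edgeR, adjusted p = 0.291 and 0.0675). The median over the 9 genes was -0.68, against -0.17 over all genes.

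In interferon-gated cells, with at least 4 of 10 interferon-stimulated markers such as Ifit3, 1 of 10 genes was higher (2.03% of all genes) and 1 lower (0.665% of all genes). Klf2 was at 102, 31.0 and 107 CPM in 73, 38 and 43 cells, against 22.3, 14.9 and 99.9 CPM, a log2 change of 1.13 ± 0.21 (edgeR, adjusted p = 8.77e-06). The difference lay in runs 1 and 2, and without run 1 the change was 0.24 (edgeR, adjusted p = 0.967), while without run 3 it was 2.00. Btg2 was at 228, 174 and 729 CPM against 224, 233 and 1171 CPM, a log2 change of -0.41 ± 0.11 (edgeR, adjusted p = 0.00623). It was lower in runs 2 and 3 and level in run 1, and lost its call without run 2 (edgeR, adjusted p = 0.0565) or run 3 (0.961). Neither call passed without the run as a block, and that of Klf2 did not in thinned cells (edgeR, adjusted p = 0.892). No AP-1 gene among 7 tested and no relative among 14 passed the test, while Rgs1 (-0.999 on the log2 scale) was the lowest of 3 other early genes that fell and Cebpb (0.40) the 1 that rose among 18. Of 7 heat shock genes Dnaja1 (0.36) was higher. The median over the 10 genes was -0.17, against -0.07 over all genes.

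The sex-linked transcripts split the microglia gate into cells with at least 2 Xist UMIs against at least 1 UMI of 4 Y-linked genes. Of 9 tested genes 3 were lower in Xist cells (0.391% of all genes) and none higher (0.313% of all genes). Klf2 was at 17.0, 7.69 and 84.8 CPM in Xist cells of runs 1, 2 and 3 and at 21.04, 21.8 and 122 CPM in Y-linked cells, a log2 change of -0.60 ± 0.10 (edgeR, adjusted p = 0.00025). Dusp1 was at 2.99, 2.95 and 19.7 CPM against 4.97, 5.19 and 33.0 CPM, a log2 change of -0.76 ± 0.14 (edgeR, adjusted p = 0.00155). Klf4 was at 15.5, 6.71 and 14.8 CPM against 20.6, 7.78 and 23.9 CPM, a log2 change of -0.48 ± 0.12 (edgeR, adjusted p = 0.0384). All 3 genes were lower in Xist cells in 3 of 3 runs. In both cell groups Klf2 and Dusp1 were highest in run 3, and Klf4 was lowest in run 2. Egr1, Ier2 and Btg2 did not pass the test (edgeR, adjusted p = 0.646, 0.628 and 0.223). Klf4 lost its call without run 1 (edgeR, adjusted p = 0.0624) or run 3 (0.459) and Dusp1 without run 3 (0.2505), and neither DESeq2 nor edgeR without the run as a block called any of the 3. In thinned cells Klf4 and Dusp1 lost their calls (edgeR, adjusted p = 0.310 and 0.143). Of 6 heat shock genes tested 4 were lower in Xist cells, led by Hspa8 (-0.39 on the log2 scale), and none was higher. No AP-1 gene among 7 passed, 1 of 14 relatives was lower (Zfp36l1, -0.26) and 2 of 18 other early genes were lower, led by Cebpb (-0.31). Animals are not assigned to cells, so the sex of the animals and other differences between them cannot be told apart.

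**Figure D5:**
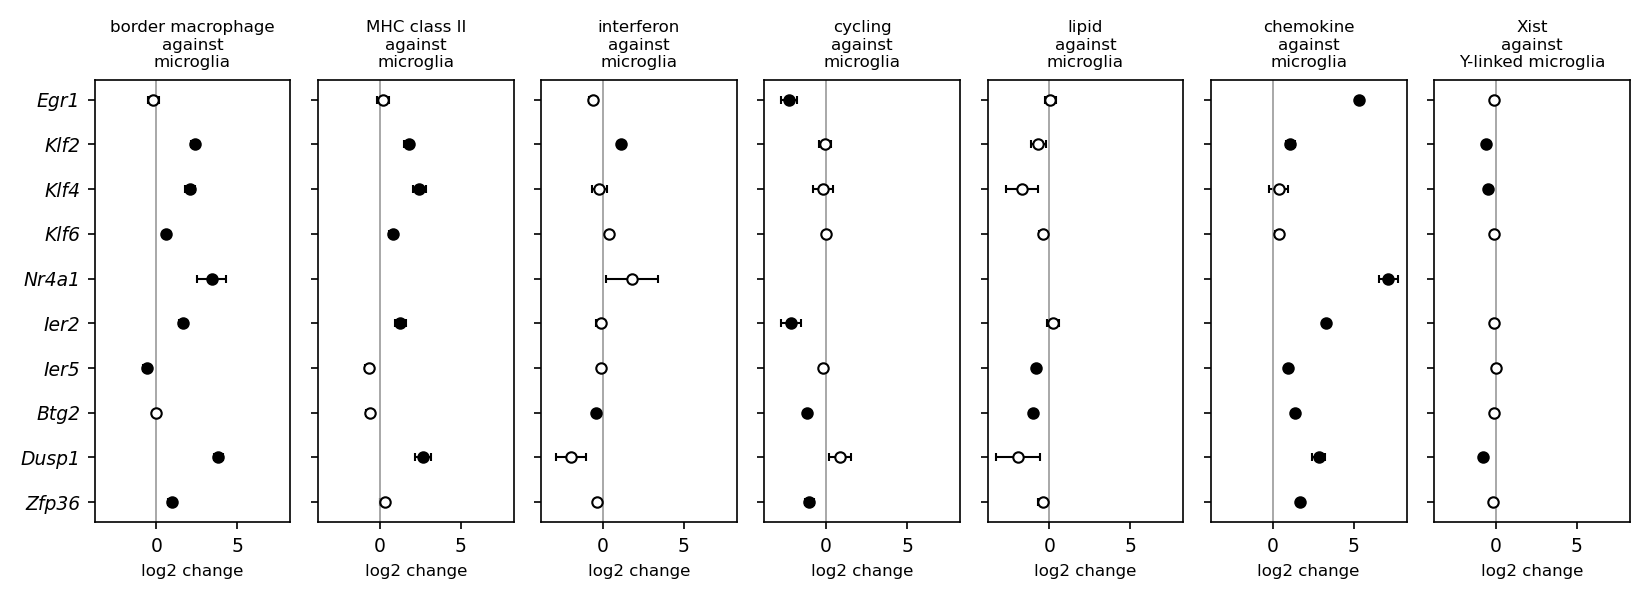
Log2 change of each of the 10 genes in 7 comparisons within runs, with standard errors on a shared axis, from edgeR with the run as a block. Filled points passed an adjusted p of 0.05, open points did not, and a missing point was not tested. Egr1 and Nr4a1 are at 5.36 and 7.14 in the chemokine gate, and 4 genes lie lower in the cycling gate.

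Across the 8 gated populations with at least 10 cells per run, ordering by the mean over runs put the chemokine gate first for Egr1, Nr4a1, Ier2, Ier5, Btg2 and Zfp36, the Emp3 gate first for Klf2, the border macrophage gate first for Dusp1 and the MHC class II gate first for Klf4 and Klf6. Neighbours in these orders overlapped over the 3 runs with few exceptions, since run 3 widened the spread of most genes. The exceptions were Ier5, at 545 to 706 CPM in the chemokine gate and at most 468 CPM in the cycling gate next to it, and Nr4a1, at 65.9 to 154 CPM in the chemokine gate and at most 28.2 CPM in the MHC class II gate next to it. The third was the lowest pair for Nr4a1, with no UMI in lipid-gated cells and at most 0.787 CPM in the microglia gate. In run 2 of the lipid gate 3 counts would be 21.3 CPM, so this pair cannot be told apart.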

How the data were processed

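Single-cell RNA was measured in 3 runs of 1 group. The deposited tables hold raw UMI counts per gene and barcode made by the authors, with 31053 genes in each run. The submitters' processing notes name Cell Ranger, Seurat 4.0 and mm10, and version 3.0.2 (run 1) and 3.1.0 (runs 2 and 3) of the counting software stand in the file headers. The alignment settings, the annotation and the counting of shared reads are not given in the sources used here. Of the gene IDs 31011 were found in GENCODE M21.

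The genes, the lists and the gates were chosen with earlier results of these data known. A gate counts markers with at least 1 UMI, in a fixed order, and 7 of the 8 lipid markers matched a row. No doublet caller was run, and an alternative left out cells that had Xist as well as Y-linked UMIs. Summed counts were tested in edgeR 4.0.16 (TMM, filterByExpr, glmQLFit, glmQLFTest) under R 4.3.3, and a population was tested where every run had at least 10 cells. The prior degrees of freedom were infinite in 6 of the 7 fits, so that genes shared 1 trend of spread. The run was a block because both sums of a run come from 1 library, and within runs the deviations of the 2 sums from their group means had correlations of 0.143 to 0.769. The text names the 10 genes in each comparison, at most 3 genes per list and direction with the largest change among those called, and the 5 most similar genes of Egr1 and Klf2. Alternatives were DESeq2 1.42.0, its size factors, no low-count filter, no block, each run left out, stricter cells, 1 marker more, thinning to 2000 UMIs and cells without doublet signs. The test was checked on simulated counts with the same spread for all genes and run effects shared by both sums of a run. That check does not cover genes whose ratio differs between runs. Intervals are exact Poisson or binomial at 95%, with 3 counts per library as the limit for genes without a UMI. Promoter sequences are from RefSeq, build GRCm38.p6.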

Additional observations from a re-analysis of the deposited data

How the results depend on the processing

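All 7 comparisons used the run as a block. With no replicate block the genes called numbered 809 for the border macrophage, 159 for the interferon, 433 for the lipid, 233 for the chemokine and 5 for the Xist comparison (1449, 312, 1009, 819 and 81 with it), and of the 10 early genes 4, 3, 0, 0, 0, 2 and 0 were called for the border macrophage, MHC class II, interferon, cycling, lipid, chemokine and Xist comparisons (8, 5, 2, 4, 2, 8 and 3 with it). At an unadjusted p under 0.05, edgeR without the block had 0, 1, 2 and 0 of the 10 genes in the interferon, cycling, lipid and Xist comparisons. DESeq2's Wald test called 935, 1032, 206, 1197, 527, 453 and 20 genes in that order of comparisons (with the block in edgeR 1700 for MHC class II and 2164 for cycling), and 1, 1 and 0 of the 10 genes for interferon, cycling and Xist, where 5 were under an unadjusted 0.05 for Xist. DESeq2's size factors in edgeR left 1 of the 10 genes for interferon, and no filter on low counts gave 133 genes for Xist. In thinned cells 940, 915, 169, 277 and 30 genes were called for border macrophage, MHC class II, interferon, chemokine and Xist, and 3, 1 and 1 of the 10 genes for MHC class II, interferon and Xist. With each run left out in turn, genes called ranged over 596 to 1584, 620 to 1394, 169 to 258, 1135 to 1512, 468 to 695, 411 to 679 and 72 to 136, and early genes called over 5 to 8, 3 to 5, 1 to 1, 1 to 4, 2 to 3, 7 to 8 and 1 to 4. Klf2 in the chemokine gate ranged from -1.36 without run 3 to 1.34 without run 1. The mean Klf2 ratio of Emp3-gated cells was 15.4 where at least 2 Emp3 UMIs were required. Of the refits of single calls, 261 passed in the same direction, 69 did not pass and 1 reversed. The causes of these differences were not tested. Cycling and lipid cells were not refitted with stricter cells or thinning, nor lipid with 1 marker more, because a run had fewer than 10 cells. Gates of 11 to 80 cells limit the depth of the population comparisons.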
